A study of Mus musculus with 79 samples.

Results

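The genes of the cytosolic ribosomal proteins were examined in nuclei sorted from the visual cortex of adult mice. Members were the rows of the count table that GENCODE vM21 types as protein coding and whose symbol is Rpl or Rps followed by a number, with an optional a, x or y, or is Rplp0, Rplp1, Rplp2 or Rpsa. The rule found 76 genes of the 55335 in the table, 46 of the large (60S-type) and 30 of the small (40S-type) subunit. It leaves out 4 genes of ribosomal proteins with other symbols, among them Fau, Rack1 and Rps3a1, which were followed as a separate list.

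The ribosome reads messenger RNA and joins amino acids into protein. Its small subunit binds and decodes the message, its large subunit forms the peptide bond, and the P stalk (Rplp0, Rplp1, Rplp2) of the large subunit recruits the translation factors. Most ribosomal proteins are made in near-equal numbers, and ribosomal protein genes are among the most strongly transcribed of a cell. Their mRNAs are short, begin with a run of pyrimidines called the 5′ terminal oligopyrimidine (TOP) tract, and are translated under the control of mTOR, a kinase that senses nutrients and growth signals. Several of these genes carry small nucleolar RNAs (snoRNAs), which guide the modification of ribosomal RNA, in their introns: here 29 of the 76 did, on the same strand. Most ribosomal protein mRNA lies in the cytoplasm, so nuclei hold the newly made part of it and what stays attached to the nucleus during isolation.

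All 79 libraries came from mice heterozygous for 2 knock-in alleles, INTACT (wt/ki) and VIP Cre (wt/ki). In them Cre recombinase is driven by the gene of vasoactive intestinal peptide (VIP) and the INTACT allele tags the nuclei of Cre-expressing cells. VIP marks a class of cortical GABAergic interneuron. Mice received an adeno-associated virus (AAV) with the insert Syn1-Kir2.1-2a-mScarlet-KASH, the same virus with Kir2.1(Mutant) in place of the channel, or no virus. Kir2.1 is an inwardly rectifying potassium channel that lowers excitability, the Syn1 promoter limits its expression to neurons, and mScarlet-KASH makes the nuclear envelope of transduced cells red. Injection was at postnatal days 55 to 60, darkness began 3 days later, and every library was labelled as 10 days dark housed. The protocol text gives 10 to 12 days and also names a harvest after light, which no library's own label mentions. The Kir2.1 vector gave 10 libraries from VIP nuclei that carried it, 10 from VIP nuclei that did not, 10 from the mixture of non-transduced nuclei and 8 from neurons that carried it. The mutant vector gave 9, 9, 9 and 8 in this order, and uninjected mice 3 from VIP nuclei and 3 from all nuclei. Both sexes were present except without AAV, where all libraries were from males. Each library was made from 50 to 100 sorted nuclei, so the model covers nuclear RNA of small pools and not whole cells. In such pools fewer cells of a type and less RNA per cell cannot be told apart. Every label gives its number as a BioRep, meaning a biological replicate, but names no animal. Each injected group held libraries of both sexes, so none of these groups came from a single mouse. Whether libraries of a group can share a mouse is not given. A p-value here weighs a difference against the spread over libraries, part of which may be technical.

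The libraries held 3219899 to 9267246 counts (median 6170915), and all 76 members were detected in all of them, with no count below 5. Markers matched the sorts: against all nuclei, all 10 VIP and all 8 GABAergic markers were higher in VIP nuclei and all 12 excitatory markers lower. Of 294 ribosomal protein pseudogenes in the table, 194 had counts, with a median of 0.00237% of a library's counts. How reads that match both a member and a pseudogene were counted is not given in the sources used here, so the level of any single member is uncertain to that extent. The library kit does not mark strand, so reads of a gene that overlaps a member on the opposite strand cannot be separated from it. Expression profiles correlated with the median profile of the other libraries of their group at a median of 0.923, and 2 libraries fell below 0.89: non-transduced VIP nuclei with Kir2.1, number 9 (0.867), and transduced VIP nuclei with Kir2.1, number 1 (0.881).

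Starts of these genes are shown first, because some sequence features were more frequent there in members than in all genes. RefSeq windows (GRCm38.p6, from 250 bases before to 50 after the start) matched 56 of the 76 members. In 13 of the 56 (23.2%) the annotated start was a C followed by at least 4 pyrimidines, the form of a TOP tract, against 813 of 27025 genes (3.01%). The other members with a window lacked this form at the annotated start, and whether these starts are exact was not tested. Stretches of 10 bases before and 20 from the start are given for 3 members that passed a test below (Rplp2, Rps21, Rps27), for the member with the longest tract (Rpl15), and for 2 of the 5 members with the lowest level (Rps15a, Rpl35a), with the tract in capitals:
Rplp2: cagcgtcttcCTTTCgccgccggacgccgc
Rps21: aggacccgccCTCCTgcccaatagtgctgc
Rps27: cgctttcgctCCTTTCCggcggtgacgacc
Rpl15: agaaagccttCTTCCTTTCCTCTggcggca
Rps15a: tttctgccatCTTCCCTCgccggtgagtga
Rpl35a: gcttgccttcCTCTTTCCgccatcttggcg
They lie at chr7:141447641-141447670 on the plus strand for Rplp2, chr2:180257369-180257398 on the plus strand for Rps21 and chr3:90213629-90213658 on the minus strand for Rps27. Those of Rpl15, Rps15a and Rpl35a are chr14:18270967-18270996 (minus), chr7:118116128-118116157 (minus) and chr16:33056472-33056501 (plus). The tract was 5 bases long in Rplp2 and Rps21, 7 in Rps27, 13 in Rpl15 and 8 in both Rps15a and Rpl35a, so genes of high and of low level both carried it.

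Motifs were counted in the same windows. CCGGAAG, the core bound by ETS factors, stood on either strand in 23 of 56 members (41.1%) and in 9.93% of all genes. The CGCG palindrome was found in 6 members (10.7%) against 0.525% of genes, and AAGATGG, a YY1-type core, in 9 (16.1%) against 7.28%. TATAAA was the exception, with 10.7% of members and 15.7% of genes. CTTTC, read on the transcribed strand from 20 bases before to 30 after the start, occurred in 37.5% and 7.66%. This motif can overlap a TOP tract. Promoter stretches of 80 bases before and 15 from the start are given for Rps21 and Rps27, which differ in their motifs, and for Rpl6, which passed the test between Kir2.1 and mutant in neurons, with the motifs in capitals:
Rps21: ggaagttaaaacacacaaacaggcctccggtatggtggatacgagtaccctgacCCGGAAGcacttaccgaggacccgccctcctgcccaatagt
Rps27: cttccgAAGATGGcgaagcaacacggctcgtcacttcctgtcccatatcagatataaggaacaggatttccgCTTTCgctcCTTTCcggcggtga
Rpl6: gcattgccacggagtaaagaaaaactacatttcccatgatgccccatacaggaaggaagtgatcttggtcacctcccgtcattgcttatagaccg
These are chr2:180257299-180257393 (plus), chr3:90213634-90213728 (minus) and chr5:121204421-121204515 (plus). Rps21 held the ETS-type core, Rps27 the YY1-type core and 2 copies of CTTTC, and Rpl6 none of these letters in this stretch. A match is a description of the sequence and no evidence of a bound factor.

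Together the 76 genes took 0.240% of a library's counts in the median, with a range from 0.0593% to 0.681%. By group, the median share was 0.231% in all non-transduced nuclei with Kir2.1 and 0.208% with the mutant, and 0.245% against 0.173% in transduced neurons. In VIP nuclei it was 0.271% (Kir2.1) and 0.216% (mutant) without transduction, and 0.285% and 0.213% with it. The highest group medians were those without AAV, 0.289% in all nuclei and 0.321% in VIP nuclei. Every one of the 4 Kir2.1 groups thus had a higher median than its mutant partner, with overlapping libraries in each pair, and both uninjected medians lay above all injected ones. Without AAV every library was above every mutant library of transduced neurons, while the ranges of the injected groups overlapped each other. The mitochondrially encoded protein genes took a similar share, 0.0691% to 0.360% (median 0.215%), and did not follow the same order: in transduced neurons they were lower with Kir2.1 (median 0.129%) than with the mutant (0.177%).

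**Figure D1:**
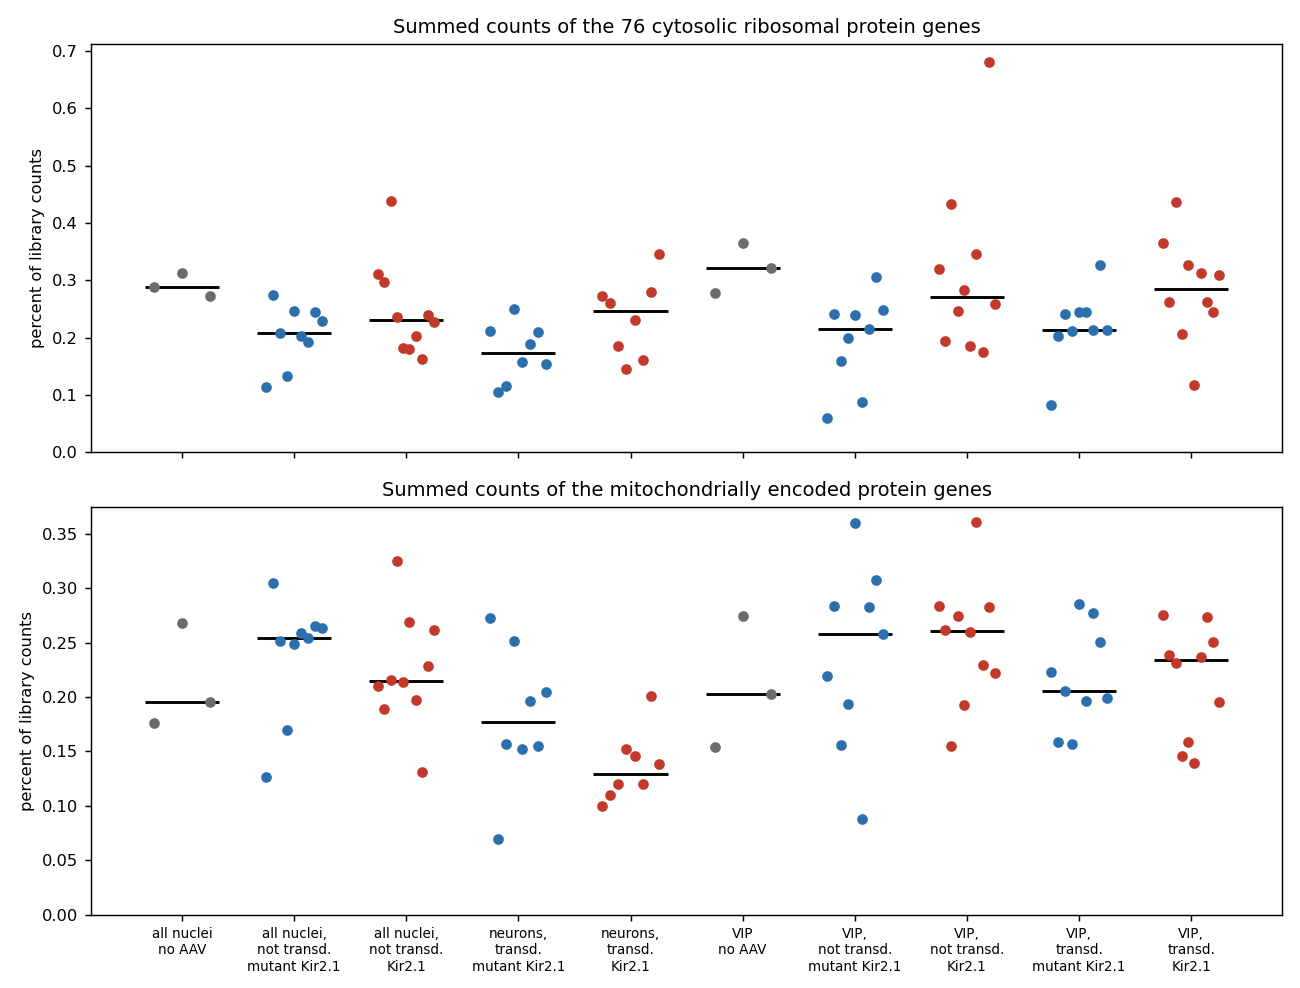
Percent of each library's counts taken by the 76 ribosomal protein genes (top) and by the mitochondrially encoded protein genes (bottom), for the 10 groups; each point is a library, the black line the group median, and colour gives the vector. The ribosomal protein share ran from 0.0593% to 0.681%, and in each of the 4 pairs the Kir2.1 median lay above the mutant median while the points overlapped.

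Levels of single members are compared per kilobase of merged exon (scaled counts, CPM, per kb; medians of 79 libraries), since read number grows with length. On this scale the order was headed by Rplp1, a P stalk protein, at 84.6 CPM per kb, then Rps29 at 53.4 and Rps15 at 47.9, both of the small subunit, Rpl41, the smallest ribosomal protein, at 45.1 and Rpl4 at 40.1. At the low end stood Rpl39 at 5.69, Rps19, whose human counterpart is mutated in Diamond-Blackfan anaemia, at 3.73, Rpl35a at 3.52, Rps15a at 2.97 and Rps20 at 2.89 CPM per kb. Rplp1 and Rps20 thus differed 29.2-fold, and the group medians of Rplp1 (60.6 to 146 CPM per kb) lay above those of Rps20 (2.02 to 5.13) throughout. Neighbours in the order, such as Rps15 and Rpl41 or Rps15a and Rps20, had overlapping ranges over libraries. Merged exon length counts rare long isoforms, which lowers the value of genes such as Rps20. With the length of the longest transcript instead, 4 of the 5 highest and 4 of the 5 lowest members were the same. The longest transcript can itself be a rare long isoform, so this does not remove that effect. In Rps20 it covers 3706 of 4080 merged bases, and in Rplp1 499 of 499. Total counts, not scaled by length, were 23774 for Rplp1 and 6227 for Rps20, so the 29.2-fold difference depends on the length used. The large and small subunits had similar medians, 14.2 and 13.1 CPM per kb, and so did members with a snoRNA (13.2) and without (14.6). Of the 4 X-linked members, Rps4x was at 28.0 CPM per kb, Rpl10 at 20.8, Rpl36a at 7.13 and Rpl39 at 5.69.

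**Figure D2:**
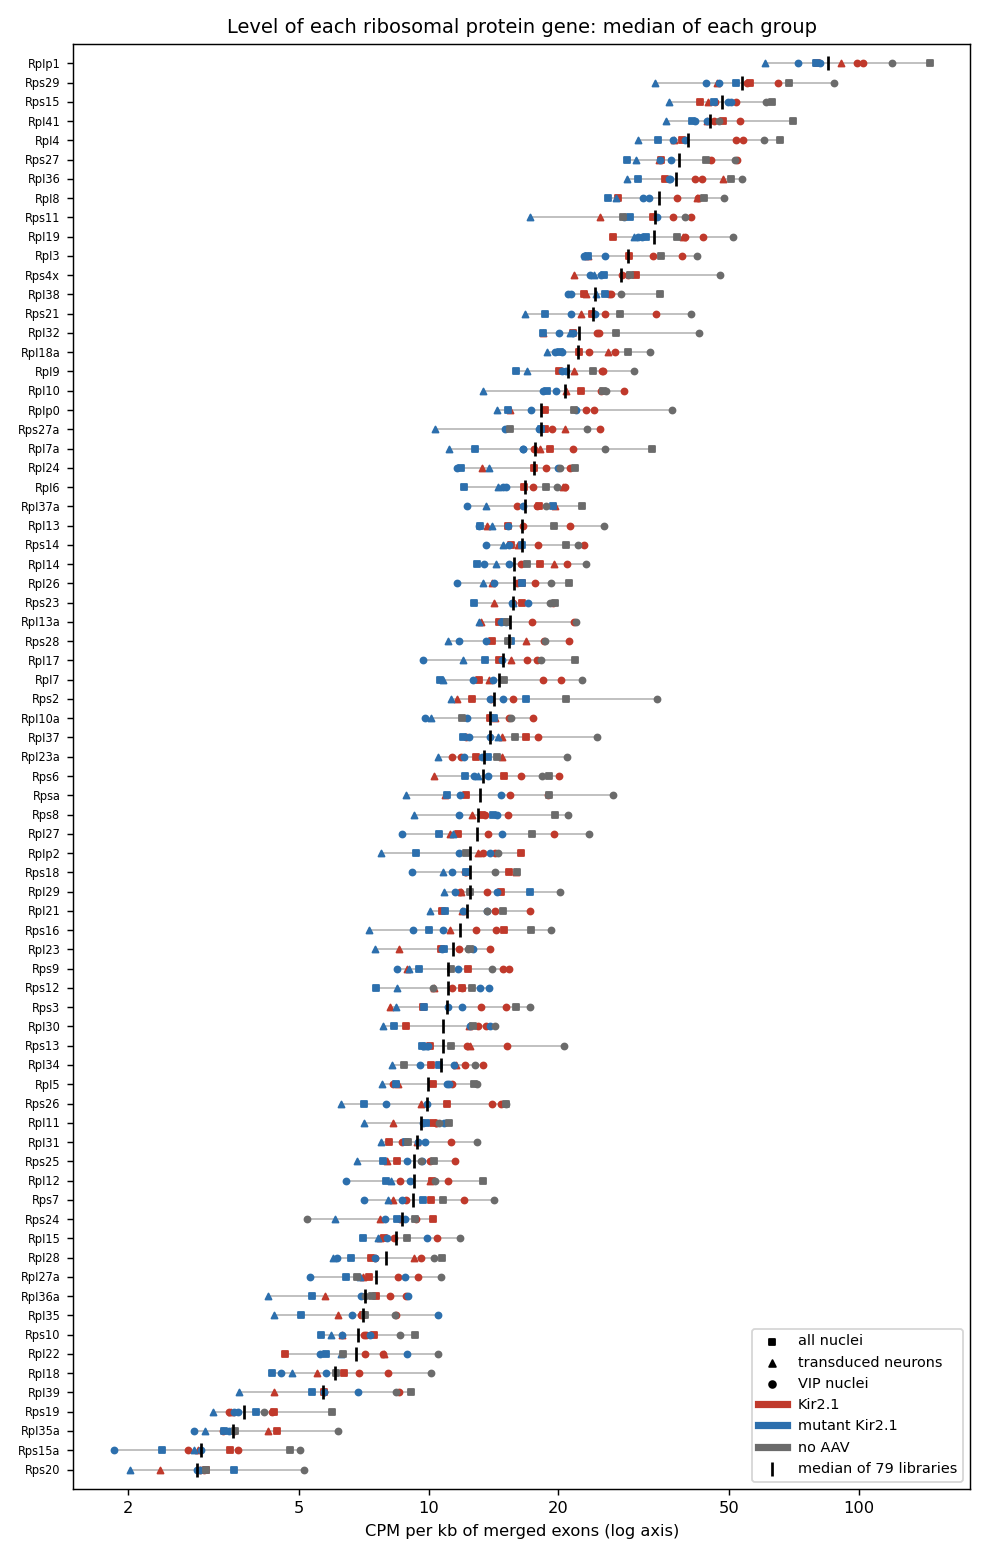
Level of 74 of the 76 members in CPM per kb of merged exon length (log axis), ordered by the median of 79 libraries (black tick); each symbol is the median of 1 group, its shape the population and its colour the vector. Rplp1 is highest at 84.6 and Rps20 lowest at 2.89 CPM per kb. Their group medians lie apart throughout, whereas neighbours in the order, such as Rps15 and Rpl41, had overlapping ranges over libraries.

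Genes outside the symbol rule lay within this range: Fau (fused to a ubiquitin-like protein) had a median of 29.2 CPM per kb, Rps3a1 24.3 and Rack1, a scaffold on the small subunit, 12.2. Of the paralogs, Rpl22l1 was the most abundant at 13.7 CPM per kb, above its partner Rpl22 at 6.80. Rpl22 and Rpl22l1 are close relatives that can take the same place in the ribosome. Rps27l was at 7.89, Rpl36al at 5.66, Rps4l at 5.09 and Rpl7l1 at 2.78 CPM per kb. Rpl3l, Rpl39l, Rps27rt and Rpl10-ps3 were at 0 in the median library, Rpl9-ps6 at 0.271 CPM per kb, and Rpl10l, known from testis, had no count in any library.

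Members varied together. Within groups, the SD of log2 CPM (with 0.5 added) had a median of 0.62 over members. It was smallest for Rpsa (0.44), a small subunit protein also known as the laminin receptor, Rpl17 (0.46) and Rplp2 (0.47). It was largest for Rpl36 (0.83), Rpl35 (0.80) and Rpl28 (0.79), all of the large subunit. The deviations of members from their group means correlated at a median of 0.534 over the 2850 pairs, and 2842 pairs were positive. The mitochondrially encoded genes, which are cut from shared transcripts, had a higher median of 0.644, with all pairs positive. These points share libraries and their depth, and the values are given as a description. Computed in the same way, nuclear-encoded oxidative phosphorylation genes (subunits of the respiratory chain and ATP synthase) reached 0.494. Mitochondrial ribosomal proteins had 0.120, translation initiation factors 0.113, elongation factors and other TOP mRNAs 0.164 and ribosome biogenesis factors 0.038. The median deviation of the oxidative phosphorylation list had the same sign as that of the members in 75 of 79 libraries, whereas the mitochondrially encoded genes had it in 45 and the mTOR list in 29. In 35 libraries at least 60 of the 76 members lay on the same side of their group mean. A shift of a few libraries can thus set the sign of many members. Counts of positive or negative members below are therefore not counts of separate observations.

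The libraries with the largest shifts moved the whole family. Number 9 of the non-transduced VIP nuclei with Kir2.1 had a member share of 0.681% and number 1 of the non-transduced VIP nuclei with the mutant 0.0593%. In the first, 70 members were above their group mean, by 1.37 log2 units in the median. In the second, all 76 were below it, with a median of -1.29. Number 9 also stood apart in its profile, had 3996572 counts and had the highest oxidative phosphorylation share of all libraries, 0.695%. Number 1 had 6343543 counts and the lowest such share, 0.0849%, and its mitochondrially encoded share of 0.219% was near the median of all libraries. Shifts were also alike in some libraries of the same number and vector. The mutant libraries numbered 1 had 0.114% in all nuclei, 0.0593% in non-transduced and 0.0825% in transduced VIP nuclei, each the lowest of its group. The Kir2.1 libraries numbered 3 had 0.438%, 0.433% and 0.437% in the same order, against 0.272% in transduced neurons. Number 3 is labelled male in transduced neurons and female in the other populations. The labelled sex also differs within Kir2.1 number 4 (female in transduced neurons, male in the others). It differs within Kir2.1 number 8 too (male in transduced VIP nuclei, female in the others). Over all numbers the likeness was uneven: transduced and non-transduced VIP nuclei lay on the same side of their group medians in 8 of 10 numbers with Kir2.1 and in 4 of 9 with the mutant. Whether such libraries share an animal or a handling step was not tested.

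**Figure D3:**
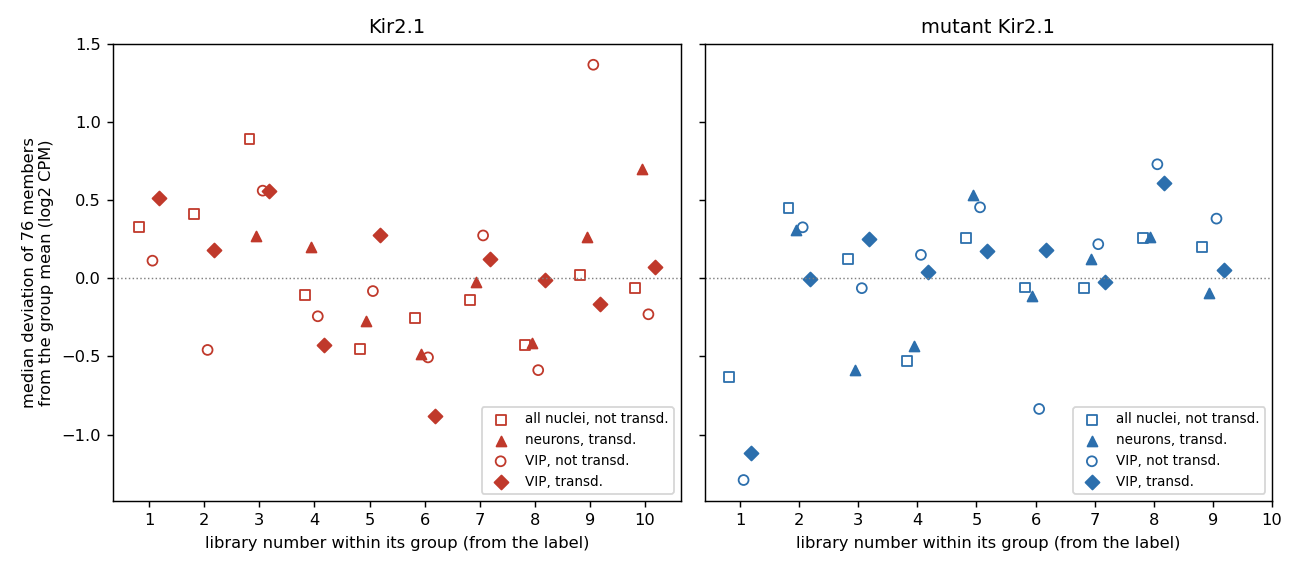
Median deviation of the 76 members from their group mean (log2 CPM, y axis) against the number a library carries in its label, for Kir2.1 (left) and mutant Kir2.1 (right); symbols give the population. Number 9 of the non-transduced VIP nuclei with Kir2.1 is highest at 1.37, number 1 of the non-transduced VIP nuclei with the mutant lowest at -1.29, and the mutant libraries numbered 1 all lie below 0.

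The first comparison asked how VIP nuclei differ from the mixture of all nuclei, in non-transduced and uninjected libraries. Genes were tested with edgeR's quasi-likelihood test, with p-values adjusted (Benjamini-Hochberg) over all genes tested and a threshold of 0.05. Of the 76 members 4 were higher in VIP nuclei and 0 lower, beside 12.8% of all genes higher and 19.7% lower (32.6% in either direction). They included Rps21 and Rps27 of the small subunit and Rpl13 of the large subunit. The median log2 fold change of members was 0.25 against -0.05 for all genes, and 65 of 76 were positive and 11 negative, beside 47.2% and 52.8% of all genes.

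Rps27, a zinc-finger protein of the small subunit (ENSMUSG00000090733, chr3:90212522-90213651), had 29.0, 47.4 and 461 CPM in the lowest, median and highest library of VIP nuclei with Kir2.1, and 22.2, 36.1 and 65.2 CPM in all nuclei. With the mutant the values were 9.53, 35.9 and 56.5 in VIP nuclei and 21.7, 30.1 and 49.8 in all nuclei, and without AAV 24.8, 53.7 and 65.7 against 44.2, 46.0 and 59.1. The populations overlapped within every vector, and the 461 CPM belonged to number 9, with the next library at 97.0. The log2 fold change was 0.61 ± 0.24 (SE; edgeR, adjusted p = 0.047). For Rps21 (ENSMUSG00000039001, chr2:180257377-180258445) the same library had 168 CPM and the next 44.2, and the log2 fold change was 0.65 ± 0.23 (edgeR, adjusted p = 0.0244). Rpl13 had a log2 fold change of 0.43 ± 0.17 (edgeR, adjusted p = 0.0429). Without the library that stood apart none of the 4 passed: the log2 fold changes were 0.32 (Rps21), 0.30 (Rpl13) and 0.20 (Rps27), with edgeR adjusted p of 0.17, 0.126 and 0.366. The members' median was then 0.12.

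Other genes of protein synthesis were tested in the same comparison, beside 12.8% of all genes higher and 19.7% lower. Elongation factors and other TOP mRNAs had 5 of 19 higher and 0 lower, among them Gas5, a snoRNA host that encodes no protein (0.52 ± 0.13, edgeR adjusted p = 0.000879), and Eef1b2, an exchange factor of elongation (0.59 ± 0.16, adjusted p = 0.00193). Initiation factors had 3 of 33 higher, led by Eif2s2, a subunit of eIF2 (0.64 ± 0.16, edgeR adjusted p = 0.00115), and 1 lower, the scaffold Eif4g3. Ribosome biogenesis factors had 3 of 43 higher, among them Nop10 and Nop58, both parts of snoRNA-protein particles. Mitochondrial ribosomal proteins had 8 of 78 higher and 2 lower, Mrpl41 (-0.87 ± 0.19) and Mrps22 (-0.66 ± 0.26). Oxidative phosphorylation had 6 of 40 higher, led by the ATP synthase subunit Atp5o (0.43 ± 0.07, edgeR adjusted p = 5.65e-06), and the mTOR list 2 of 23 in each direction, with Larp1, which binds TOP mRNAs, higher by 0.44 ± 0.16 (edgeR, adjusted p = 0.0254) and the kinase Mtor lower (-0.33 ± 0.12, adjusted p = 0.0216). Of the 4 ribosomal protein genes outside the rule 0 passed. Of 6 paralogs tested, Rps4l was higher by 1.52 ± 0.44 and Rpl22l1 by 0.62 ± 0.19 (edgeR, adjusted p = 0.00504 and 0.00826), and Rpl3l, listed near 0, was lower.

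The main question of the series was what happens when activity that remains in the dark is removed by Kir2.1. In transduced VIP nuclei, 0 of 76 members passed, beside 1.39% of all genes (0.354% higher, 1.03% lower). At an unadjusted p under 0.05, 6 members were higher and 0 lower, beside 5.39% and 5.82% of genes, and DESeq2 called 0. The median log2 fold change of members was 0.23 (all genes 0.04), and 65 of 76 were positive and 11 negative, beside 53.2% and 46.7% of genes. It was 0.12 without number 1 of the mutant group and 0.14 without number 3 of the Kir2.1 group, with 55 and 59 positive, and 0.13 with 53 positive in males only. The smallest p belonged to Rps28, a small protein at the mRNA exit of the small subunit. It had 18.9, 36.4 and 58.2 CPM in the lowest, median and highest Kir2.1 library and 13.3, 20.2 and 33.3 CPM with the mutant. These ranges overlapped, and the log2 fold change of 0.83 ± 0.29 had an edgeR adjusted p of 0.162. Rps13, also of the small subunit, had the next p (0.67 ± 0.26, edgeR adjusted p = 0.24). Of the lists named above, 0 genes of protein synthesis or oxidative phosphorylation passed. Cell type markers moved in the same comparison: 5 of 10 VIP and 2 of 8 GABAergic markers were lower with Kir2.1, and the GABAergic markers ranged from 0.456% to 0.895% of counts with Kir2.1, against 0.619% to 0.929% with the mutant. The part of this in the members' values was not tested.

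In transduced neurons 1 of 76 members was higher with Kir2.1 and 0 lower, beside 2.18% of genes higher, 3.45% lower and 5.63% in either direction. It was Rpl6, a large subunit protein (ENSMUSG00000029614, chr5:121204481-121209241, host of 1 snoRNA). Its lowest, median and highest libraries had 43.7, 64.4 and 130 CPM with Kir2.1 and 28.1, 45.6 and 56.9 CPM with the mutant. Most Kir2.1 libraries were higher, but the groups overlapped between the lowest Kir2.1 and the highest mutant library. The log2 fold change was 0.74 ± 0.21, a 1.67-fold difference (edgeR, adjusted p = 0.0378). The call was lost when any of 9 of the 16 libraries was left out, with edgeR adjusted p from 0.0517 to 0.0921, namely Kir2.1 numbers 4, 7 and 10 and mutant numbers 2, 3, 4, 6, 7 and 9. The next members were Rpl30 at 0.71 ± 0.22 and Rpl37a at 0.94 ± 0.29, both of the large subunit, with edgeR adjusted p of 0.0517 and 0.0564. Of all members 72 were positive (53.9% of genes), with a median of 0.35 against 0.04 for all genes, and 15 were higher at an unadjusted p under 0.05 and 0 lower, beside 9.23% and 9.17% of genes. Without number 10 of the Kir2.1 group, 62 were positive, the median was 0.23 and 7 passed the unadjusted threshold. Markers of other cells moved here as well: 3 of 7 GABAergic markers tested and 2 of 7 astrocyte markers were lower with Kir2.1. GABAergic markers ranged from 0.00755% to 0.0831% of counts with Kir2.1, against 0.0404% to 0.108% with the mutant. Astrocyte markers took 0.0261% to 0.0383% and 0.0411% to 0.0487%, which do not overlap. Their part in the members' values was not tested.

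Ribosome-related lists in the same neurons are to be read beside the 2.18% of all genes called higher. Mitochondrial ribosomal proteins had 3 of 78 higher (Mrpl2 by 1.20 ± 0.29, edgeR adjusted p = 0.0118, with Mrpl41 and Mrps34). Biogenesis factors had 2 of 41 higher, Nop56, a snoRNA-particle protein, by 0.92 ± 0.25 and the nucleolar GTPase Gnl3 by 0.68 ± 0.20 (edgeR, adjusted p = 0.0265 and 0.0459). Gas5 was higher by 0.87 ± 0.20 and Eif2b3, a subunit of the eIF2 exchange factor, by 0.91 ± 0.24 (edgeR, adjusted p = 0.0074 and 0.0228), and mt-Nd1 of the mitochondrial genome was lower by a log2 fold change of -0.65 ± 0.19 (adjusted p = 0.037). Of 40 nuclear oxidative phosphorylation genes 0 passed. Gas5 had 172, 239 and 402 CPM with Kir2.1 and 83.7, 154 and 205 CPM with the mutant in the lowest, median and highest library, so its groups overlapped.

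**Figure D4:**
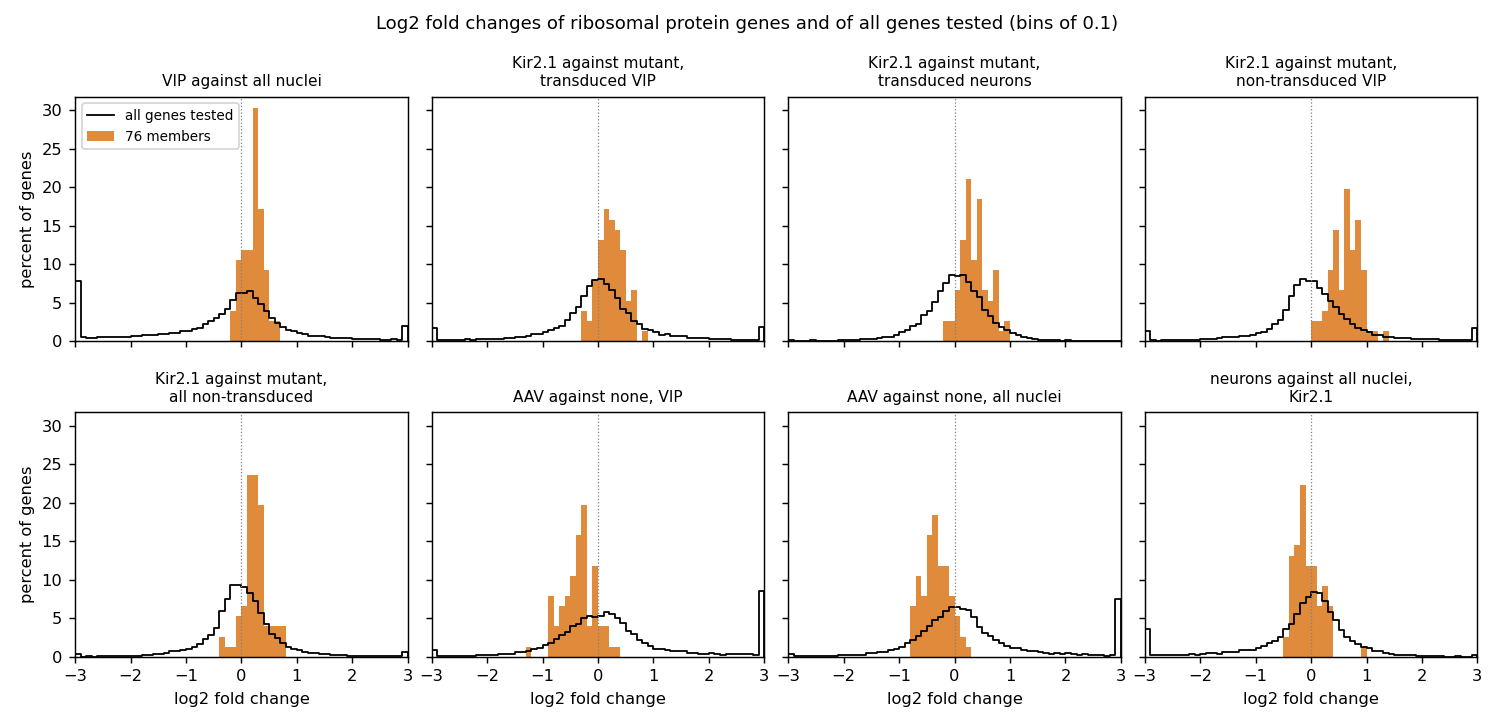
Distribution of log2 fold changes in 8 comparisons, as percent of genes in bins of 0.1, with values beyond the axis counted in the end bins: bars are the 76 members, the black line all genes tested. In the 4 comparisons of Kir2.1 with the mutant the members' median lies above that of all genes, at 0.23, 0.35, 0.65 and 0.23, and in both comparisons of AAV with no AAV below it, at -0.34 and -0.36.

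Nuclei without the vector were taken from injected cortices as well. In non-transduced VIP nuclei all 76 members were positive with Kir2.1 (50.7% of genes) with a median log2 fold change of 0.65, beside 0.01 for all genes. At an unadjusted p under 0.05, 44 members were higher and 0 lower, beside 4.75% and 3.94% of genes. After adjustment 0 members passed by edgeR, as did 0 of all 21207 genes (0%), and DESeq2 called 0 members. The smallest p belonged to Rps27, with 29.0, 47.4 and 461 CPM with Kir2.1 and 9.53, 35.9 and 56.5 CPM with the mutant (1.34 ± 0.36, edgeR adjusted p = 0.265). Rpl34, a large subunit protein, had 18.8, 35.3 and 172 CPM against 8.34, 25.3 and 32.4 CPM (1.12 ± 0.31). Rpl17, at the exit of the peptide tunnel, had 15.6, 22.5 and 53.5 CPM against 9.08, 12.9 and 19.9 CPM (0.89 ± 0.26). Both had the same edgeR adjusted p as Rps27, and the groups overlapped for all members. How many of all genes overlapped in this way was not counted. The shift leaned on single libraries: without number 9 of the Kir2.1 group the median was 0.40, 73 members were positive and 13 passed the unadjusted threshold. Without number 1 of the mutant group 31 did, and without number 6 of it 30. Oxidative phosphorylation genes had a median of 0.56 with 19 of 40 at an unadjusted p under 0.05, mitochondrial ribosomal proteins 0.34 and the 4 outside the rule 0.46, while the mTOR list had -0.11. Cell type markers had 0 calls in this comparison.

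In all non-transduced nuclei 68 members were positive with Kir2.1 and 8 negative (49.6% and 50.4% of genes), with a median log2 fold change of 0.23. Without number 3 of the Kir2.1 group the median was 0.12 with 58 positive and 3 at an unadjusted p under 0.05, and in males only it was 0.04 with 43 positive and 1 at that threshold. Again 0 members passed by edgeR or DESeq2, as did 0 of all 21362 genes (0%) by edgeR, and 7 were higher and 0 lower at an unadjusted p under 0.05, beside 3.3% and 2.74% of genes. Rplp2 of the P stalk (ENSMUSG00000025508, chr7:141447370-141451585) had the smallest p, with 15.8, 34.0 and 44.9 CPM with Kir2.1 and 10.4, 19.4 and 27.5 CPM with the mutant (0.79 ± 0.23, edgeR adjusted p = 0.527). Its groups overlapped. Rps9 (0.70 ± 0.25) and Rps26 (0.75 ± 0.29), both of the small subunit, had edgeR adjusted p-values of 0.635 and 0.723. Over the 4 comparisons of Kir2.1 with the mutant, 54 of 76 members (71.1%) were positive in all 4 and 0 negative in all 4, beside 17.0% and 13.9% of the 15759 genes tested in all 4. The comparisons use different libraries, but libraries of the same number and vector correlated in part, and whether the 4 are independent was not tested. The members also varied together within groups (median pair correlation 0.534), so the 76 are not separate observations. Their share is given beside that of all genes as a description. No member had its 2 groups apart in any of the 4 comparisons, and the share of all genes with groups apart was not counted. The X-linked members, Rps4x, Rpl10, Rpl36a and Rpl39, were among the 54.

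The differences between these responses were tested directly. The interaction of vector and transduction in VIP nuclei called 0 of 76 members by edgeR or DESeq2, beside 0.401% of genes. The members' median was -0.41, with 65 of 76 negative (49.3% of genes) and 4 lower at an unadjusted p under 0.05, beside 4.03% of genes. Without the 2 libraries that stood apart the median was -0.23 and 1 member passed the unadjusted threshold. Rpl27 had the smallest p (-1.23 ± 0.48, edgeR adjusted p = 0.383), followed by Rpl34 (-0.94 ± 0.43) and Rpl17 (-0.74 ± 0.36). The interaction of vector and population among transduced nuclei called 0 members, beside 0.316% of genes, with a median of -0.08 and 2 lower at an unadjusted p under 0.05 (2.65% of genes). Rpl37a had the smallest p there (-1.12 ± 0.44, edgeR adjusted p = 0.449), followed by Rplp2 (-0.74 ± 0.33) and Rps3 (0.71 ± 0.36). A difference of the Kir2.1 effect between transduced and non-transduced VIP nuclei, or between VIP nuclei and neurons, was therefore not detected for any member.

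Transduced and non-transduced VIP nuclei were also compared within each vector, which puts the sort by mScarlet and the presence of the vector beside the channel. With Kir2.1, 0 members passed by edgeR or DESeq2, beside 0.769% of genes (0.17% higher, 0.599% lower). The median was -0.25 and 62 of 76 were negative (49.2% of genes). Without the 2 libraries that stood apart it was -0.04, with 33 positive and 0 at an unadjusted p under 0.05. Rps29 had the smallest p, with 16.6, 38.2 and 70.5 CPM in transduced and 30.6, 45.0 and 233 CPM in non-transduced nuclei (-0.70 ± 0.29, edgeR adjusted p = 0.314). Its groups overlapped, and Rpl13 (-0.55 ± 0.26) and Rpl37 (-0.65 ± 0.32), both of the large subunit, followed with edgeR adjusted p of 0.481 and 0.524. With the mutant, 0 passed beside 0.00943% of genes, the median was 0.16, and 62 were positive and 14 negative (48.9% and 51% of genes). Rpl27, with 12.4, 22.8 and 54.5 CPM against 3.61, 13.3 and 36.5 CPM, had the smallest p (0.77 ± 0.35, edgeR adjusted p = 0.831), and its groups overlapped. Rps9 (0.61 ± 0.28) and Rpl17 (0.54 ± 0.26) followed with edgeR adjusted p of 0.873 and 0.929. At an unadjusted p under 0.05, 3 members were lower and 0 higher with Kir2.1 (5.25% and 4.06% of genes). With the mutant 3 were higher and 0 lower (2.49% and 2.74% of genes). These comparisons share groups with those of Kir2.1 against the mutant.

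Transduced VIP nuclei were set against transduced neurons, the latter being mostly excitatory by their markers. With Kir2.1, 2 of 76 members were higher in VIP nuclei, Rpsa and Rps3, and 0 lower, beside 8.21% of genes higher and 18.9% in either direction. Rpsa (ENSMUSG00000032518, chr9:120127689-120132369, host of 3 snoRNAs) had 38.7, 59.9 and 83.5 CPM in VIP nuclei and 15.6, 34.6 and 48.7 CPM in neurons, overlapping groups with a log2 fold change of 0.81 ± 0.22 (edgeR, adjusted p = 0.00542). Rps3, which lies at the mRNA entry of the small subunit (ENSMUSG00000030744, chr7:99477896-99483738, host of 2 snoRNAs), had 32.0, 67.8 and 109 CPM against 28.9, 36.6 and 51.4 CPM (0.93 ± 0.25, edgeR adjusted p = 0.00573). Its groups overlapped as well, and Rps6 had the next p (0.81 ± 0.33, edgeR adjusted p = 0.0811). With the mutant, 1 member was higher, Rplp2, beside 7% of genes higher and 17.9% in either direction. It had 19.1, 28.7 and 36.7 CPM in VIP nuclei and 9.06, 16.1 and 25.9 CPM in neurons, again overlapping (0.78 ± 0.24, edgeR adjusted p = 0.0171). Rps26 (0.92 ± 0.34) and Rpl30 (0.58 ± 0.25) had edgeR adjusted p of 0.0501 and 0.105. Positive values numbered 60 with Kir2.1 (49.1% of genes) and 70 with the mutant (48.2% of genes). The members' share of calls lay below that of all genes in both. Mitochondrially encoded genes had 6 of 7 higher in VIP nuclei with Kir2.1 and 0 of 7 with the mutant.

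Transduced neurons were then compared with all non-transduced nuclei, which also hold glia. With Kir2.1, 1 of 76 members was higher, Rpl22, and 0 lower, beside 2.54% of genes higher and 8.76% in either direction. Rpl22 (ENSMUSG00000028936, chr4:152325742-152334071) encodes a large subunit protein that ribosomes can do without. It had 17.3, 22.9 and 33.7 CPM in transduced neurons and 5.56, 13.5 and 20.2 CPM in all nuclei, with an overlap of the lowest and highest libraries (0.94 ± 0.27, edgeR adjusted p = 0.0147). Rps4x (-0.44 ± 0.24) and Rps24 (-0.38 ± 0.24), of the small subunit, had the next p-values (edgeR adjusted p of 0.341 and 0.426). With the mutant, 0 members passed by edgeR or DESeq2 beside 5.41% of genes. Rpl22 had 10.3, 18.2 and 23.0 CPM in neurons and 5.66, 16.9 and 22.3 CPM in all nuclei there, ranges that nearly coincided, and 1 other member, Rps27a, which is fused to ubiquitin, was lower at an unadjusted p under 0.05 (-0.53 ± 0.25, edgeR adjusted p = 0.319). Rpl10a (-0.51 ± 0.26) and Rps24 (-0.46 ± 0.24) followed. The members' medians were -0.11 with Kir2.1 and -0.14 with the mutant.

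**Figure D5:**
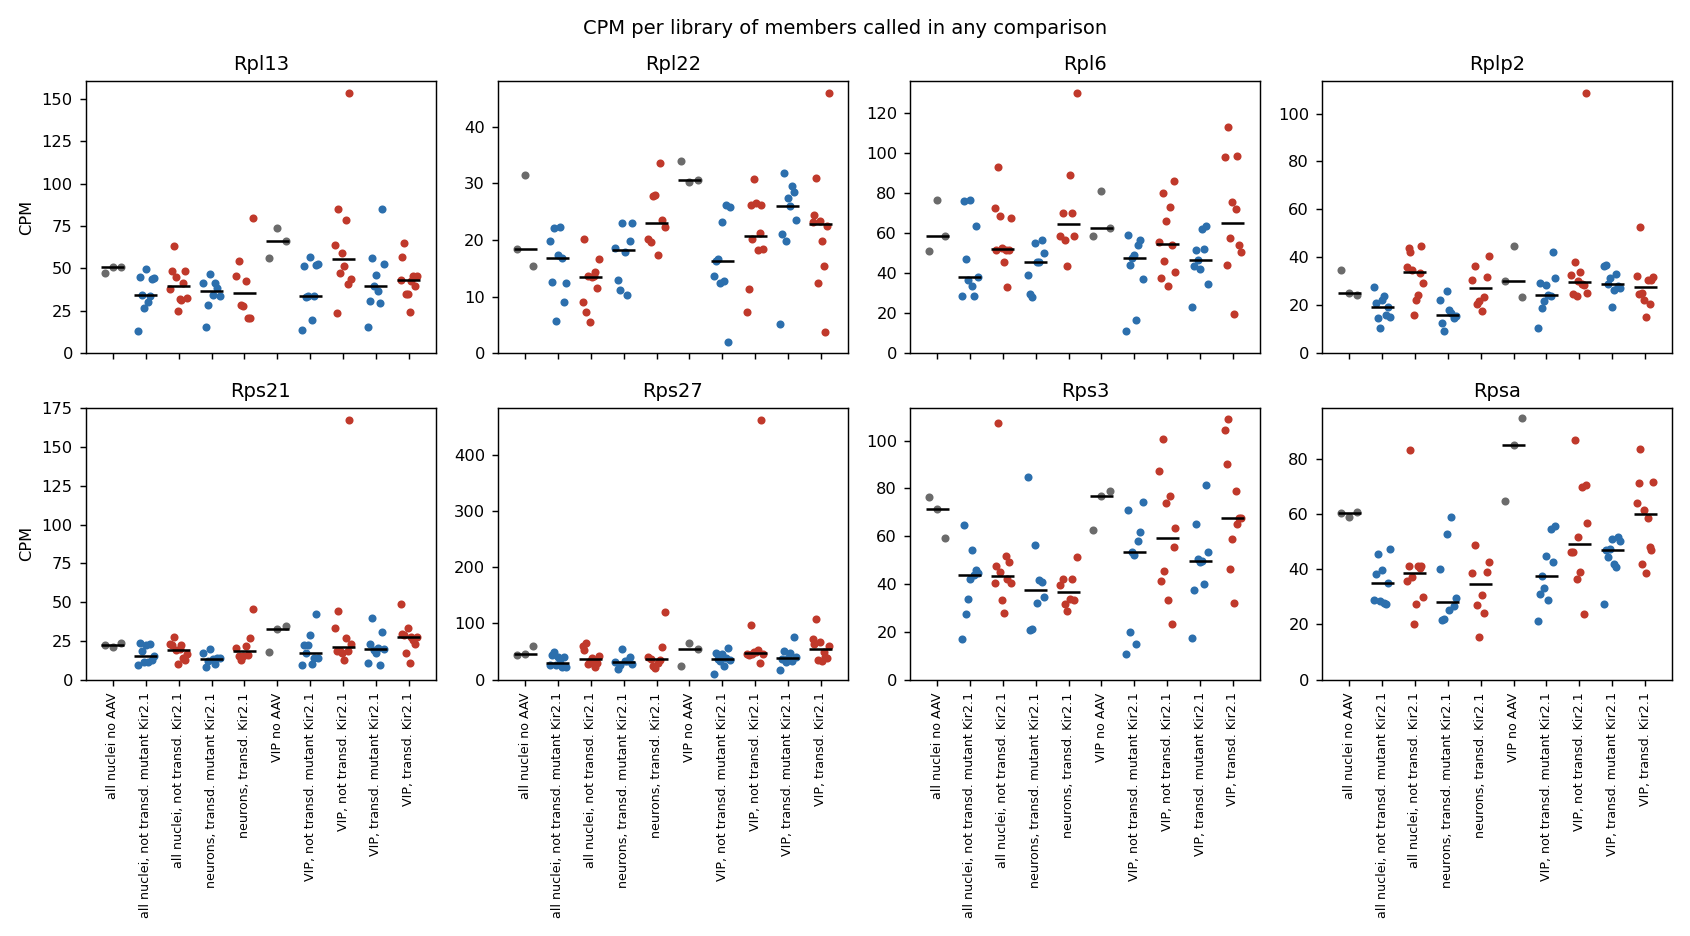
CPM of 8 members that passed the threshold in at least 1 comparison, by group; each point is a library, the black line the group median, and colour the vector (red Kir2.1, blue mutant, grey no AAV). Rps27 and Rps21 show the library with 461 and 168 CPM in non-transduced VIP nuclei with Kir2.1, and no gene shows groups of Kir2.1 and mutant that lie apart.

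Last, the injected libraries (mean of Kir2.1 and mutant, non-transduced) were compared with the 3 uninjected libraries of the same population. The uninjected libraries were all male, so sex and injection are partly entangled. In VIP nuclei 0 members passed by edgeR or DESeq2, beside 0.00943% of genes. The median was -0.34 and 68 of 76 were negative (43.6% of genes), while the median of all genes was 0.12. Without number 2 of the uninjected libraries the members' median was -0.22, 21 were positive and 3 passed the unadjusted threshold, and without number 3 of them 13 were positive and 3 passed. With all libraries, at an unadjusted p under 0.05, 7 were lower, beside 3.37% of genes. Rpsa had the smallest p: its 3 uninjected libraries had 64.8, 85.0 and 94.6 CPM, whereas the lowest, median and highest injected libraries had 23.6, 49.0 and 86.9 CPM (Kir2.1) and 21.2, 37.5 and 55.5 CPM (mutant). All uninjected libraries were above all mutant ones and overlapped those with Kir2.1 (-0.86 ± 0.26, edgeR adjusted p = 0.378). Rps2, a small subunit protein, had 53.4, 62.0 and 75.0 CPM without AAV. It had 6.52, 25.5 and 59.3 CPM with Kir2.1 and 11.1, 25.4 and 39.9 CPM with the mutant (-1.21 ± 0.41, edgeR adjusted p = 0.449), and Rps13 had -0.85 ± 0.33. In all nuclei 0 passed by edgeR or DESeq2, beside 0.211% of genes, with a median of -0.36 (all genes 0.09), 69 of 76 negative (44.2% of genes) and 8 lower at an unadjusted p under 0.05 (3.08% of genes). Without number 2 of the uninjected libraries 17 were positive and 1 passed the unadjusted threshold. Rpl41 had 67.3, 82.3 and 89.4 CPM without AAV, 37.4, 56.3 and 84.8 CPM with Kir2.1 and 33.9, 47.8 and 61.1 CPM with the mutant (-0.62 ± 0.22, edgeR adjusted p = 0.346). Rpsa had 58.9, 60.3 and 60.7 CPM without AAV in all nuclei. With Kir2.1 its highest library, number 3, had 83.1 CPM and the next 41.3 CPM, so these groups overlapped through that library. Rpsa was the second by p in all nuclei (log2 fold change -0.68) and the first in VIP nuclei. Rpl7a was the third in all nuclei (-0.79 ± 0.32). In both populations the median share of the members was the highest without AAV. The highest single libraries were injected ones, with Kir2.1, at 0.438% in all nuclei and 0.681% in VIP nuclei. Without AAV the highest were 0.313% and 0.365%. The oxidative phosphorylation list had median log2 fold changes of -0.19 in VIP nuclei and -0.38 in all nuclei.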

How the data were processed

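RNA was measured in 79 libraries of 50 to 100 sorted nuclei. The values are raw read counts per gene in 1 table deposited by the authors. Adapter trimming with cutadapt 1.18, alignment with STAR 2.5.3a to mm10 and HOMER 4.9.1 are listed per the submitters' processing notes; the annotation, counting settings and treatment of reads with several matches are not given in the sources used here. Gene types, symbols and exon lengths came from GENCODE vM21 (55154 of 55335 identifiers matched; the rest held 0.0264% of counts). Counts were fitted for each comparison on its own groups with edgeR 4.0.16 (R 4.3.3; TMM, filterByExpr with a minimum count of 10 and total of 15, quasi-likelihood F test), with Benjamini-Hochberg adjustment over all genes tested and a threshold of 0.05. DESeq2 1.42.0, other scalings, no filter, sex as a covariate, a replicate block, 1 fit of all libraries and leaving out libraries were alternatives. CPM used TMM over all 79 libraries. Results of some genes are not reported here. Fits were tested on simulated data. Each gene was drawn on its own there, so the shifts that members share within a library were not simulated. Members named in a comparison were up to 10 of those called or, where fewer than 3 were called, the 3 with the smallest p; for levels, the 5 highest and lowest, the X-linked members and the 3 with the largest and smallest spread. The members and lists were chosen with earlier results of these data known. No 2 libraries held identical counts. Total counts per library limit the precision: the lowest count of any member in any library was 5.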

Additional observations from a re-analysis of the deposited data

Results flagged for a closer look

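For the members' summed share and 8 members called in at least 1 comparison, 72 groups of values were searched for a library far from the others of its group, and 12 were found. Chance alone flags about 1 in 20 groups of independent values. The 8 members were chosen because they were called, in part through these same libraries, and they vary together, so the number found is not to be set against that rate.

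Of these, 5 came from number 9 of the non-transduced VIP nuclei with Kir2.1. The members' share of counts was 0.681% there and 0.433% in the next library. Rps27 was at 461 CPM against 97.0 in the next, Rps21 at 168 against 44.2 and Rpl13 at 153 against 85.0. Rplp2 was at 109 CPM against 37.9. In number 10 of the transduced neurons with Kir2.1, Rps27 was at 120 CPM (next 57.9) and Rps21 at 45.6 (next 26.7). In number 3 of all non-transduced nuclei with Kir2.1, Rps3 was at 107 CPM (next 51.6) and Rpsa at 83.1 (next 41.3). In number 3 of the transduced VIP nuclei with Kir2.1, Rplp2 was at 52.5 CPM (next 32.2). In number 1 of the transduced VIP nuclei with the mutant, values were low, with Rpl22 at 5.14 CPM (next 19.7) and Rpsa at 27.2 CPM (next 40.9).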

How the results depend on the processing

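The members' median log2 fold change did not change sign in 207 alternatives, though the replicate block brought 1 to 0 and several others moved by over 1.5 times. The spread between single libraries of a group (SD 0.449, log2) exceeds most of these medians. This SD is not the error of a difference between groups of libraries. The count of members lower stayed at 0. The count of members higher moved in 29 of 207. For VIP against all nuclei it was 4, beside 2929 of 22855 genes called higher. It was 2 with RLE size factors (2768 genes) and 1 with a replicate block (2873 genes). It was 0 in 1 fit of all 79 libraries (2565 of 24344 genes). Without the libraries that stand apart it was 0 as well (2854 of 22783 genes). For Kir2.1 against mutant in transduced neurons it was 1, beside 347 of 15949 genes called higher. It was 4 with sex as a covariate (398 genes) or by DESeq2 (581 of 33246 genes). It was 0 with a replicate block (163 genes) and in 1 fit of all 79 libraries (121 of 24344 genes). In females only (61 of 17072 genes) and in males only (15 of 16758 genes) it was also 0. It was 0 to 3 when each library was left out (231 to 432 genes). For transduced VIP against transduced neurons with Kir2.1 it was 2 (1507 of 18359 genes), and 4 by DESeq2 (1931 of 36149 genes). With the mutant it was 1 (1286 genes), and the replicate block gave 3 (1450 genes). RLE (1368 genes), upper-quartile scaling (1405 genes) and sex as a covariate (1279 genes) each gave 2. So did 1 fit of all libraries (1591 of 24344 genes) and DESeq2 (1655 of 36149 genes). Leaving out the libraries that stand apart also gave 2 (1456 of 18285 genes). The cause was not tested. The labels do not say whether a number stands for the same animal in different groups. For Kir2.1 against mutant and for AAV against none, the replicate block was the number alone. For the other comparisons it was the number within a vector. The number alone joins libraries of different vectors, for which the labels give no pairing, so those results do not reflect a known pairing. Across vectors, same-numbered libraries correlated at -0.07 to 0.13, and 4 of 34 correlated best with their own number. Within a vector they correlated at -0.05 to 0.38, and 47 of 73 did. With the replicate block the median was 0.16 for VIP against all nuclei (0.25 without), -0.10 for transduced against non-transduced VIP with Kir2.1, 0.12 for VIP against neurons with Kir2.1, -0.23 for the interaction of vector and population, 0 for neurons against all nuclei with Kir2.1 (-0.11 without), and -0.12 for AAV against none in all nuclei, where 25 members were positive and 0 passed the unadjusted threshold. By sex, the median was 0.55 in females and 0.93 in males in non-transduced VIP nuclei, 0.22 and 0.65 in neurons and 0.38 and 0.04 in all nuclei. Without the libraries that stand apart it was 0.12 for VIP against all nuclei and -0.19 for the interaction of vector and population (-0.08 with them). Leaving out libraries moved the median between 0.40 and 0.75 in non-transduced VIP nuclei, 0.12 and 0.32 in transduced VIP nuclei, 0.23 (without number 10 of the Kir2.1 group) and 0.46 in transduced neurons and 0.12 and 0.31 in all nuclei. Nuclear RNA of 50 to 100 nuclei per library limits what single members can show.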

Other observations

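Per kilobase of merged exon, Gas5, a noncoding TOP transcript that hosts snoRNAs, had a median level of 66.3 CPM per kb over 79 libraries, between Rplp1 (84.6) and Rps29 (53.4). Of 11 paralogs in the count table, 5 passed the count filter in transduced neurons. These 5 had a median log2 fold change of 0.64 with Kir2.1, all 5 positive and 0 called by edgeR, with 1 at an unadjusted p under 0.05. Of all genes 53.9% were positive, 2.18% were called higher and 9.23% were higher at that unadjusted threshold.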
